A study of Mus musculus with 42 samples.

Results

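The subcortical maternal complex genes Nlrp5, Ooep, Tle6, Khdc3, Padi6, Nlrp2 and Nlrp14 were examined in RNA-seq of mouse preimplantation embryos. They were chosen by name, and all 7 had a row among the 15737 genes of the expression table. Embryos came from superovulated ICR females mated to ICR males, and each library held the RNA of 3 pooled embryos. Early 2-cell embryos were taken at 34 h after hCG, late 2-cell embryos at 48 h and 4-cell embryos at 58 h. At the late 2-cell stage the groups were a control, FK866 at 0.01 µM, FK866 at 0.01 µM with NMN at 10 µM, TSA at 10 nM, and a group labelled Sirt1, which the study's methods describe as a knockdown. The 4-cell groups were a control, FK866, and FK866 with NMN at the same doses. FK866 blocks NAMPT, which converts nicotinamide to NMN on the salvage route to NAD+, and NMN from the medium enters the route after this step. TSA inhibits class I and II histone deacetylases, and SIRT1 is a deacetylase that consumes NAD+. In the Sirt1 knockdown, siRNA, Trim21 mRNA and SIRT1 antibody were injected into zygotes, and the stated control for injection was scrambled siRNA with Trim21 mRNA, whereas the drug control was DMSO. A single late 2-cell control column stands beside both kinds of treatment.

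The subcortical maternal complex is a protein assembly under the cortex of the mammalian egg that is inherited by the early embryo and kept away from sites of contact between blastomeres. Its messengers are made during oocyte growth, and maternal messengers as a class are cleared as the embryo begins to use its own genome. Nlrp5 encodes MATER, Ooep encodes FLOPED and Tle6 encodes a Groucho-related co-repressor family member, and these form the core. Khdc3 encodes FILIA, which binds the core through MATER. Padi6 encodes a peptidylarginine deiminase family protein needed for the cytoplasmic lattices of the egg. Nlrp2 and Nlrp14 encode NLRP proteins of the oocyte that are counted with the complex. Loss of several of these genes in the mother stops her embryos at the first cleavage stages.

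All 7 are protein-coding genes on GRCm38. On chromosome 7 lie Nlrp5 at chr7:23385889-23441922 on the plus strand, Nlrp2 at chr7:5298547-5351035 on the minus strand and Nlrp14 at chr7:107166990-107198102 on the plus strand. Ooep lies at chr9:78376109-78378725 on the minus strand and Khdc3 at chr9:73101836-73104438 on the plus strand. Tle6 lies at chr10:81590904-81601073 and Padi6 at chr4:140727355-140742643, both on the minus strand. Exons of Khdc3 share 790 of their 2050 bases with Gm20509 on the same strand, so reads there may have been assigned to either gene or to none. Exons of Nlrp2 share 105 of 3509 bases with Gm18757 on the opposite strand. The values of Khdc3 are therefore uncertain.

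The oocyte factor FIGLA binds E-boxes, and NOBOX and LHX8 bind homeodomain sites, which is why the 250 bases before the start of these genes were read for such letters. RefSeq promoters of build GRCm38.p6 matched 6 of the 7 genes, with 8 start sites in all. The letters CANNTG were found in 7 of the 8 windows and in 66.2% of all 32851 promoter windows of the same length. TAATTA or TAATTG was found in 2 of the 8 and in 11.3% of all windows, and TATAAA in 1 of the 8 and in 12.4%, with both strands searched for each. A match describes the letters of the window and nothing more. The windows of Nlrp5 and Padi6 are shown because they hold no annotated exon and begin at the annotated gene start. They are printed 5′ to 3′ on the strand of the gene, with CANNTG in capitals. The Nlrp5 window is chr7:23385639-23385888 on the plus strand, and the Padi6 window is chr4:140742644-140742893 on the minus strand.

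Nlrp5: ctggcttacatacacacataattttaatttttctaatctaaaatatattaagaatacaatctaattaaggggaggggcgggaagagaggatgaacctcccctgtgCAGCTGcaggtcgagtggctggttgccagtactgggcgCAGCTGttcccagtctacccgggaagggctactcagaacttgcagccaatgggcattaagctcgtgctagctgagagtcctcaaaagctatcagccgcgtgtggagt
Padi6: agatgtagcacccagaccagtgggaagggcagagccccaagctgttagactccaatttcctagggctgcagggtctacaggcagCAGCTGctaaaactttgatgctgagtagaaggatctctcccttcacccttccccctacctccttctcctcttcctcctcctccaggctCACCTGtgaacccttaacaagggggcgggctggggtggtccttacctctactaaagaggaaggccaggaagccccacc

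In the Nlrp5 window, both matches to CANNTG read CAGCTG and begin 145 and 107 bases before the start. In the Padi6 window, CAGCTG begins 166 bases and CACCTG 78 bases before the start. The only Nlrp2 window held no match to any of the 3 motifs.

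The deposited values are FPKM, fragment counts scaled to exon length and library size, in 1 column for each group. The low values fell on whole multiples of what 1 read is worth, which gave 16 libraries of 3169677 to 10003481 reads. A single library was seen in the column with the header 4-cell FK866 and in that with the header 4-cell FK866+NMN. The other 7 columns are sums of 2 libraries and were divided by 2. Where a column held a pair of libraries, A denotes the one with more reads and B the other. With 2 libraries against 2, no exact permutation test can go below p = 0.333, so differences are given as values without a p. Genes reaching 1 FPKM in one of the columns compared were tested, on log2(FPKM + 1). A gene above 1 FPKM in one column and at 0 in the other is therefore always past 2-fold. Headers of 5 of the 9 columns name other groups than the study's tables do. All 47 values above 0 that the tables give for 4-cell control were equal to values under the header late 2-cell TSA. All 84 for 4-cell FK866 were under late 2-cell Sirt1, and all 80 for 4-cell FK866+NMN were under 4-cell control. The directions in the TSA table matched the column headed 4-cell FK866 for 1203 of 1203 genes, against 546 for the column headed TSA and 1096 for early 2-cell, the next best. Those in the Sirt1 table matched the column headed 4-cell FK866+NMN for 773 of 821 genes, against 442 for the column headed Sirt1, but they also matched late 2-cell FK866 for 703 and early 2-cell for 684, so the Sirt1 match is less specific. Both readings are given below. Only the late 2-cell control, FK866 and FK866+NMN columns are named alike by headers and tables. The early 2-cell column was matched to no group of the tables, so it keeps its header in both readings and its name was not checked.

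Sirt1 itself, the target of the knockdown, stood at 86.6 and 66.2 FPKM in the late 2-cell control libraries. It stood at 32.4 and 73.1 FPKM in the libraries headed late 2-cell Sirt1, so these overlapped the controls. In the single library headed 4-cell FK866+NMN, which the tables read as Sirt1 knockdown, it stood at 11.3 FPKM, 6.78-fold below the control mean. It was also low, at 7.61 FPKM, in the single library headed 4-cell FK866, and at 13.5 and 6.18 FPKM in early 2-cell embryos. The 12 2-cell genes of a marker list, such as Zscan4 genes, summed to 183 to 492 FPKM in the 4 columns with unchanged names. They summed to 287 and 371 FPKM in the 2 single-library columns. In the columns headed late 2-cell TSA, late 2-cell Sirt1 and 4-cell control they summed to 18.6, 34.2 and 48.6 FPKM. Of 12 cumulus and granulosa markers 6 had rows, and they summed to between 0 and 8.39 FPKM in every column, with 3 to 6 of them at 0. Of 13 oocyte markers 7 had rows, and they summed to 44.0 to 732 FPKM.

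In early 2-cell embryos Ooep, Nlrp14, Padi6, Tle6 and Nlrp5 were among the more abundant messengers. The summed level of all 7 genes was 1738 FPKM, of which Ooep made up 41.4%. Ooep stood at 719.9 FPKM, rank 41 of 15737 genes, and Nlrp14 at 700.4 FPKM, rank 43. The values of these 2 genes fitted more than 1 split into whole reads, so only their column means are given. Padi6 stood at 114 and 141 FPKM, Tle6 at 72.0 and 109.9 FPKM, and Nlrp5 at 72.9 and 88.4 FPKM. Nlrp2 was lower, at 14.0 and 14.1 FPKM, rank 2331 by its column mean. Khdc3 was the lowest, at 5.28 and 3.78 FPKM, rank 4470. FPKM is a level per exon length, which puts genes on a shared scale. Differences between genes in cDNA amplification were not tested, so comparisons between genes are rough. For Khdc3, the exon overlap with Gm20509 also leaves the level uncertain.

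**Figure D1:**
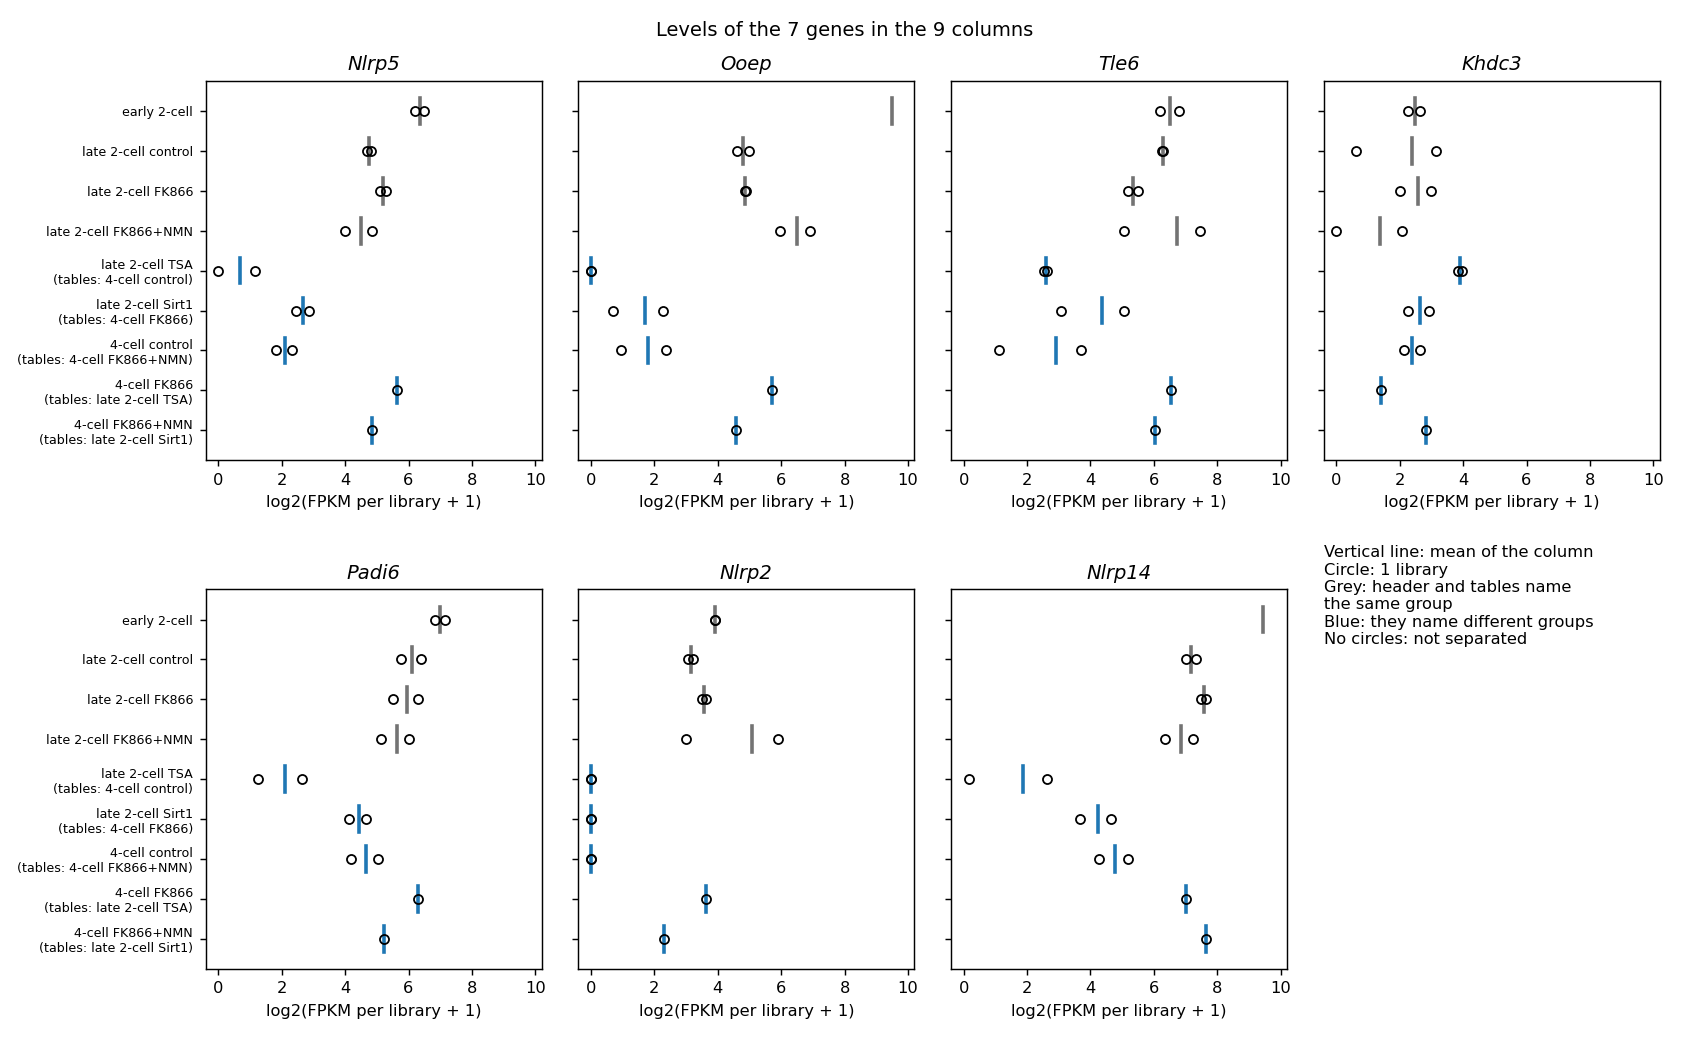
Levels of the 7 genes as log2(FPKM per library + 1) on the x axis, for the 9 columns on the y axis, with the group by the tables in brackets where it differs from the header. Vertical lines are column means and circles are libraries. The 6 genes other than Khdc3 are lowest in the 3 columns headed late 2-cell TSA, late 2-cell Sirt1 and 4-cell control, while Khdc3 is highest in the first of these.

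Between the early and late 2-cell stages the complex genes differed greatly in how far their level was lower. Of the 7 genes, 3 were more than 2-fold lower in late 2-cell controls and 0 were more than 2-fold higher, where 31.7% of the 9514 tested genes were lower and 32.2% higher. The median log2 fold change was -0.90 against -0.0032 over all tested genes. The value was below 0 for all 7, where it was below 0 for 50.1% of tested genes, but Tle6 at -0.25 and Khdc3 at -0.093 overlapped between the stages and turned to 0.084 and 0.68 without library B of the early and library A of the late column. In pooled embryos, fewer cells with a messenger and less of it in each cell cannot be told apart.

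Ooep had the widest difference, from 719.9 FPKM to 23.1 and 30.4 FPKM, 26.9-fold lower with a log2 fold change of -4.70. Nlrp14 went from 700.4 FPKM to 161 and 128 FPKM, 4.85-fold lower. Nlrp5 stood at 25.0 and 27.0 FPKM in late 2-cell controls, 3.10-fold below the early stage. Of the 5 genes whose libraries could be separated in both columns, Nlrp5, Padi6 and Nlrp2 had both late libraries below both early ones, where 34.1% of genes did, and 0 had both above, where 30.8% did. Padi6 stood at 82.8 and 52.7 FPKM and Nlrp2 at 7.43 and 8.21 FPKM, log2 fold changes of -0.90 and -0.77.

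Tle6 was kept at nearly its early level, with 75.5 and 77.2 FPKM in late controls, inside the range of the early libraries. Khdc3 had no stable value here. Its late control libraries stood at 0.523 and 7.85 FPKM, 15.0-fold apart and on both sides of the early libraries. The number of genes more than 2-fold lower was 4 without library A or without library B of the late control, since Padi6 reached -1.26 or Khdc3 -1.86. Ooep was 7.92-fold above Tle6 in early 2-cell embryos, whereas Tle6 was 2.85-fold above Ooep in late 2-cell controls.

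**Figure D2:**
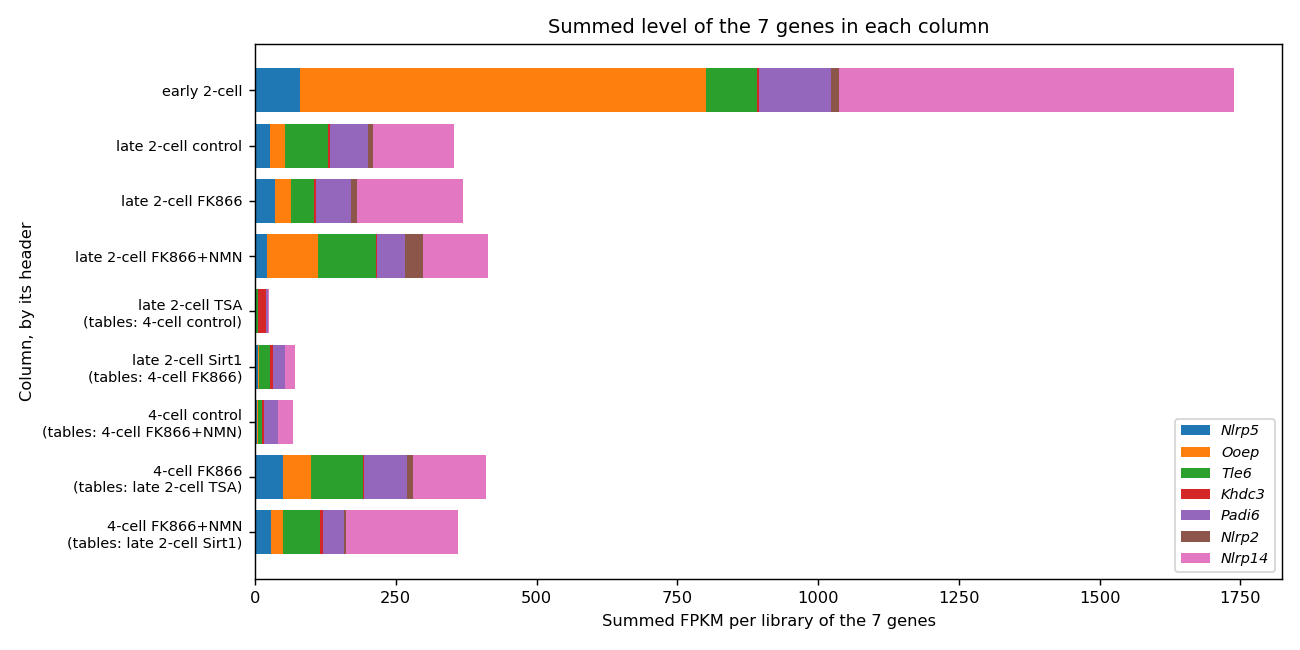
Summed FPKM per library of the 7 genes on the x axis, for each of the 9 columns on the y axis, with 1 colour per gene. The sum was 1738 in early 2-cell embryos and between 353 and 414 in the late 2-cell control, FK866 and FK866+NMN columns, and Ooep, in orange, made up 41.4% of it in the first.

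To see how blocking NAD+ synthesis bears on these maternal messengers, FK866 embryos were compared with controls at the late 2-cell stage, where both readings name the same columns. Not 1 of the 7 differed by more than 2-fold in either direction, where 18.1% of 9022 tested genes were higher and 20% lower. Their median log2 fold change was 0.19 against -0.065 over all tested genes. The summed level was 369.9 FPKM with FK866 and 353 FPKM in controls.

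Within that small range, the 3 NLRP genes lay on one side and Tle6 on the other. Nlrp5 stood at 33.6 and 38.4 FPKM with FK866, above both controls at 25.0 and 27.0 FPKM. Nlrp14 stood at 178 and 199.5 FPKM, above 161 and 128 FPKM. Nlrp2 stood at 11.4 and 10.3 FPKM, above 7.43 and 8.21 FPKM. These 3 of 7 genes had both FK866 libraries above both controls, where 16.6% of genes did, with log2 fold changes of 0.45, 0.38 and 0.43. Tle6 was the 1 gene with both FK866 libraries below, at 35.3 and 44.2 FPKM against 75.5 and 77.2 FPKM, where 20.3% of genes were below. Its log2 fold change was -0.92, and -1.09 without library B of FK866.

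The other 3 genes overlapped between the groups. Ooep stood at 28.3 and 28.1 FPKM with FK866, between the controls. Padi6 stood at 44.4 and 78.3 FPKM against 82.8 and 52.7 FPKM. Khdc3 stood at 6.86 and 3.0 FPKM, between controls that were themselves 15.0-fold apart, and its log2 fold change of 0.19 became 1.96 without library B of the control.

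NMN was added to FK866 to bypass the block, and this comparison shares its FK866 column with the preceding one. With NMN, 3 of the 7 were over 2-fold higher and 1 lower, where 18.9% of 8605 tested genes were higher and 33.3% lower. The median log2 fold change was -0.33 against -0.24 over all tested genes. The libraries of the FK866+NMN column differed from each other more than those of any other column of 2 libraries, with a median ratio of 2.06 over genes and 934 of 4134 genes of at least 5 FPKM at 0 in 1 of them. Their part in the values of the complex genes was not tested.

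Ooep was the 1 gene with both NMN libraries above both FK866 libraries, at 119 and 61.8 FPKM against 28.3 and 28.1 FPKM, where 9.66% of genes were above. It was 3.20-fold higher than with FK866 and 3.37-fold higher than in controls. It also lay above both controls, where 11% of genes did, and 0 of the 7 lay below both, where 28% did. Nlrp5, at 15.0 and 27.9 FPKM, and Nlrp14, at 150.0 and 80.4 FPKM, had both libraries below FK866, where 25% of genes did. Their log2 fold changes over FK866 were -0.72 and -0.71, which became -1.21 for Nlrp5 without library B and -1.22 for Nlrp14 without library A of FK866+NMN. Both genes overlapped the controls.

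The other high values came from 1 library. Tle6 stood at 176 FPKM in library A and 32.2 FPKM in library B, and its log2 fold change over FK866 of 1.37 became -0.30 without library A. Nlrp2 stood at 59.0 and 6.98 FPKM, and its 1.52 became -0.57 without library A. Khdc3 stood at 0 and 3.19 FPKM, a log2 fold change of -1.19 that was -0.50 without library A and -0.62 without library A of FK866. Padi6 stood at 63.0 and 34.0 FPKM and overlapped both other groups. Set beside controls, FK866+NMN had 2 of the 7 over 2-fold higher and 0 lower, where 21% of genes were higher and 36.2% lower. Without library A of FK866+NMN only Ooep was more than 2-fold higher than in controls, and Tle6 was lower, at -1.22. Without library B, Tle6 was higher, at 1.19, and Khdc3 lower, at -2.37. Without library A of the control, Khdc3 was lower, at -1.77.

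**Figure D3:**
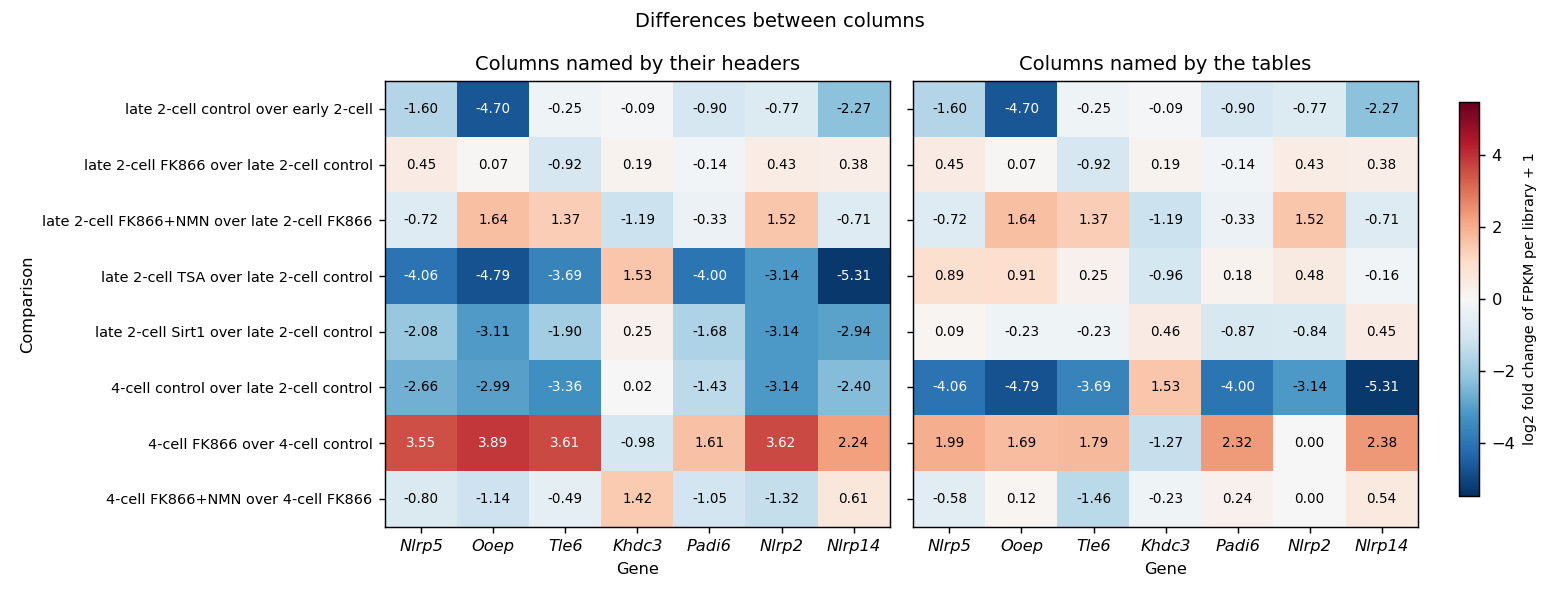
Differences between columns for the 7 genes on the x axis and 8 comparisons on the y axis, as log2 fold change on the FPKM + 1 scale, with columns named by their headers on the left and by the tables on the right. The first 3 comparisons are the same in both, late 2-cell TSA and Sirt1 are between -5.31 and 1.53 by the headers and between -0.96 and 0.91 by the tables, and values against a column at 0 depend on the pseudocount.

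By 4 cells most of these messengers were much lower, under either reading of the columns. By the headers, 6 of 7 genes were more than 2-fold lower in 4-cell than in late 2-cell controls and 0 higher, where 33.8% of 8868 tested genes were lower and 24.2% higher, with a median of -2.66 against -0.21. By the tables, 6 were more than 2-fold lower and 1 higher, where 41.3% of 8648 genes were lower and 23.2% higher, with a median of -4.0 against -0.44. In both readings the 6 lower genes were the ones other than Khdc3, and for each of them both 4-cell libraries lay below both late 2-cell ones, where 28.6% of genes did by the headers and 32.2% by the tables. By the headers 0 of the 7 lay above, where 27.8% of genes did.

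The 4-cell control column by the tables is the one headed late 2-cell TSA, and 6 of the 7 genes had their lowest level there. Ooep had 0 reads in both libraries, which is at least 255-fold lower than in late 2-cell controls when set against 3 reads over both libraries, a floor that covers counting error only. Nlrp2 also had 0 reads here, at least 122-fold lower by the same floor, and tied with the columns headed Sirt1 and 4-cell control. Nlrp5 stood at 1.23 and 0 FPKM, 42.2-fold lower. Nlrp14 stood at 0.124 and 5.20 FPKM, 54.3-fold lower, although its libraries were 42.0-fold apart. Padi6 stood at 1.38 and 5.20 FPKM and Tle6 at 5.24 and 4.76 FPKM, 20.6-fold and 15.3-fold lower.

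Khdc3 went the other way. It stood at 14.4 and 13.5 FPKM, its highest level in any column, against 0.523 and 7.85 FPKM in late 2-cell controls. Both libraries lay above both controls, where 24.4% of genes did, and the log2 fold change of 1.53 became 0.76 without library A of the control. By these values, which the exon overlap with Gm20509 leaves uncertain, Khdc3 made up 54.7% of the summed level of 25.5 FPKM there.

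In the column headed 4-cell control, Nlrp14, Padi6, Nlrp5, Tle6 and Ooep had a higher column mean than in the column headed late 2-cell TSA. Khdc3 had a lower one and Nlrp2 was at 0 in both. Nlrp14 stood at 35.2 and 18.1 FPKM, Padi6 at 31.9 and 17.0 FPKM, and Nlrp5 at 2.56 and 4.00 FPKM. Tle6 stood at 11.9 and 1.19 FPKM, on both sides of its 5.24 and 4.76 FPKM in the other column, Ooep at 4.10 and 0.907 FPKM, and Khdc3 at 5.17 and 3.36 FPKM. Nlrp2 had 0 reads in both libraries, at least 92.5-fold lower than in late 2-cell controls. Each gene but Khdc3 lay below its late 2-cell control values, and Khdc3 lay within them, with a log2 fold change of 0.02 that became 1.79 without library B of the late 2-cell control.

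FK866 at the 4-cell stage was compared with 4-cell controls under both readings, since the columns differ wholly between them. By the headers, 6 of 7 genes were more than 2-fold higher with FK866 and 0 lower, where 41.8% of 9368 tested genes were higher and 32.9% lower, with a median of 3.55 against 0.42. The FK866 column so read is a single library, in which the 2-cell marker genes summed to 287 FPKM against 48.6 FPKM in the 4-cell control so read. Whether that difference bears on the complex genes was not tested. In this library Nlrp14 stood at 129 FPKM, Tle6 at 91.2 FPKM, Padi6 at 77.0 FPKM, Ooep at 51.0 FPKM, Nlrp5 at 49.0 FPKM, Nlrp2 at 11.3 FPKM and Khdc3 at 1.67 FPKM. The first 6 lay above both 4-cell control libraries, where 51.3% of genes did, and Khdc3 below them, where 36.5% did, with a log2 fold change of -0.98 that was -1.21 without library B of the control so read. Nlrp2, at 0 reads in the control, was at least 133-fold higher, and it reached the minimum of 1 FPKM only in the FK866 column.

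By the tables, 5 of the 6 tested genes were more than 2-fold higher with FK866 and 1 lower, where 21.2% of 7420 tested genes were higher and 13.4% lower, with a median of 1.89 against 0.10. Nlrp2 was not tested, having 0 reads in both columns. Ooep, at 0 reads in controls, and Nlrp5, at 0.617 FPKM there, reached the minimum of 1 FPKM only in the FK866 column. The count of Ooep as higher was thus fixed once it was tested. Nlrp5 stood at 6.31 and 4.49 FPKM with FK866 against 1.23 and 0 FPKM in controls, 8.75-fold higher. Padi6 stood at 24.4 and 16.6 FPKM against 1.38 and 5.20 FPKM, 6.23-fold higher. Nlrp14 stood at 24.2 and 11.8 FPKM against 0.124 and 5.20 FPKM, 6.77-fold higher.

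Tle6 stood at 32.1 and 7.36 FPKM with FK866 against 5.24 and 4.76 FPKM, 3.95-fold higher. Ooep stood at 0.608 and 3.84 FPKM against 0 reads, at least 21.2-fold higher. All 5 had both FK866 libraries above both controls, where 21.2% of genes did. Khdc3 was the 1 gene with both FK866 libraries below both controls, at 3.75 and 6.62 FPKM against 14.4 and 13.5 FPKM, where 15.3% of genes did. Its log2 fold change was -1.27, and -0.97 without library A of FK866. Tle6 rested on that library too, since its log2 fold change of 1.79 became 0.48 without it. Without library B of FK866, Ooep was under the minimum of 1 FPKM and was not tested. The counts so read therefore ranged from 4 to 5 higher and from 0 to 1 lower with 1 library left out. In both readings, then, Khdc3 lay on the other side from the 5 or 6 genes that were higher. The 2-cell marker genes summed to 34.2 FPKM with FK866 and 18.6 FPKM in the controls so read.

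With NMN added at the 4-cell stage, the readings again gave different values. By the headers both columns are single libraries, and 1 of 7 genes was more than 2-fold higher with FK866+NMN than with FK866 and 3 lower, where 25% of 8929 genes were higher and 34.7% lower. Khdc3 was the higher one, at 6.14 against 1.67 FPKM, and Ooep, Padi6 and Nlrp2 were the lower ones, at 22.6, 36.7 and 3.92 FPKM. With 1 library on each side, 2 of the 7 lay above and 5 below, where 43.8% and 56.2% of genes did. By the tables, 0 of 6 tested genes were higher and 1 lower, where 14.8% of 7754 genes were higher and 11.5% lower, with a median of -0.056 against 0.018. That gene was Tle6, at 11.9 and 1.19 FPKM with NMN against 32.1 and 7.36 FPKM, which overlapped, and its log2 fold change of -1.46 became -0.69 without library B of FK866+NMN and -0.15 without library A of FK866. Ooep reached 1.12 without library B and Nlrp14 1.11 without library A of FK866. Only Nlrp5 had both NMN libraries below both FK866 libraries, at 2.56 and 4.00 FPKM against 6.31 and 4.49 FPKM, where 14.4% of genes did. Over 4-cell controls, which share the column with the FK866 comparison, 4 of 6 genes were more than 2-fold higher with NMN by the tables and 1 lower, where 22.5% of 7598 genes were higher and 11.4% lower. Ooep and Nlrp5 again reached the minimum only in the treated column, which fixed the count of Ooep as higher. Of the 4 higher genes, Nlrp5 became 0.94 without library B of the control. Tle6 was not among them, at 0.33, and ranged from -1.46 to 1.10 without library A or B of FK866+NMN. By the headers 5 of 7 were higher and 0 lower, where 31.5% of 8470 genes were higher and 33.9% lower. All 7 lay above both controls, where 43.7% of genes did. Nlrp2, 1 of the 5, had 0 reads in the control so read and reached the minimum only in the treated column, which fixed its call. Padi6, at 0.57, became 1.07 without library A of the control so read.

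The TSA and Sirt1 groups at the late 2-cell stage are those most altered by the reading. By the headers, 6 of 7 genes were more than 2-fold lower with TSA than in controls and 1 higher, where 41.3% of 8648 genes were lower and 23.2% higher. For the Sirt1 column, 6 of 7 were lower and 0 higher, where 36.6% of 8779 genes were lower and 24.3% higher. In the libraries headed Sirt1, Tle6 stood at 32.1 and 7.36 FPKM, Padi6 at 24.4 and 16.6 FPKM and Nlrp14 at 24.2 and 11.8 FPKM. Nlrp2 had 0 reads in them, at least 120.5-fold lower than in controls. Khdc3, at 3.75 and 6.62 FPKM, overlapped the controls, and its log2 fold change of 0.25 became 2.02 without library B of the control.

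By the tables, 0 of 7 genes differed by over 2-fold with TSA, where 30.1% of 9420 genes were higher and 29.7% lower, with a median of 0.25 against 0.070. Nlrp5 at 49.0 FPKM, Ooep at 51.0 FPKM, Tle6 at 91.2 FPKM and Nlrp2 at 11.3 FPKM lay above both controls, where 43.5% of genes did, and the log2 fold changes of Nlrp5 and Ooep were 0.89 and 0.91. Without library B of the control Ooep reached 1.11, and without library A Khdc3, at -0.96, reached -1.73. For Sirt1 knockdown by the tables, 0 of 7 genes differed by over 2-fold, where 16.4% of 8622 genes were higher and 28.2% lower, with a median of -0.23 against -0.21. Nlrp14 at 198 FPKM and Nlrp5 at 27.7 FPKM lay above both controls, where 32.2% of genes did. Ooep at 22.6 FPKM, Tle6 at 64.8 FPKM, Padi6 at 36.7 FPKM and Nlrp2 at 3.92 FPKM lay below both, where 33% did. Without library B of the control, Khdc3 changed from 0.46 to 2.23 and Padi6 from -0.87 to -1.15. Each of these 2 groups so read is 1 library and has no replicate.

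Over the 9 columns, 6 of the 7 genes had profiles that resembled each other, and so did many other genes. Pearson's r of log2(FPKM per library + 1) with the mean of the other 6 genes, over 9 columns, was 0.97 for Nlrp5, 0.95 for Nlrp14 and Ooep, 0.91 for Padi6 and Tle6, 0.86 for Nlrp2 and -0.65 for Khdc3. The share of 4786 other genes with a mean of at least 5 FPKM that reached the same r with the same mean was 1.21% for Nlrp5, 3.18% for Nlrp14, 4.03% for Ooep, 8.55% for Padi6, 8.38% for Tle6, 12.3% for Nlrp2 and 73.5% for Khdc3. With the mean of all 7, the paralogues Nlrp4a and Nlrp4g had r of 0.97 and Nlrp9a and Nlrp9c of 0.96. Their ranks among those genes were 56, 68, 98 and 125. Nlrp4e, Nlrp9b and Nlrp4b had lower r, of 0.95, 0.92 and 0.81, at ranks 164, 341 and 909. These are descriptions over columns that differ in stage, library number and depth. Nlrp5, Ooep, Padi6 and Nlrp14 had their highest level in early 2-cell embryos, and Tle6 and Nlrp2 in the FK866+NMN column at the late 2-cell stage, where 1 library carried it. Of the 4786 genes, the 10 whose profile was most like the mean of the 7 were Hipk2, 3110009E18Rik, Obox1, Gyg, Obox2, Hoxa7, Bag4, Fbxw14, Fbxw28 and Esrp1, with r from 0.993 to 0.985. Hipk2 stood at 35.6 FPKM in early 2-cell embryos, at 16.1 FPKM in late 2-cell controls and at 1.07 FPKM in the column headed TSA.

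Relatives of the complex genes and other maternal lists were set beside them, with higher and lower again meaning by more than 2-fold. For reading the counts, 31.7% of tested genes were lower and 32.2% higher from the early to the late 2-cell stage, and 18.1% were higher and 20% lower with FK866. The 8 Nlrp4 and Nlrp9 paralogues were all more than 2-fold lower in late than in early 2-cell embryos, with a median of -2.57 against -0.90 for the complex genes. Under FK866 at 48 h, 6 of the 8 paralogues were more than 2-fold higher and 0 lower, with a median of 1.27. Of the 7 complex genes, 0 passed 2-fold in either direction. Nlrp4c was at 0 in late controls, against 4.78 FPKM in early embryos and 2.96 FPKM with FK866, which fixed both its calls. Nlrp9c stood at 85.4 FPKM with FK866 and 37.2 FPKM in controls, and Nlrp4e at 124 and 47.6 FPKM. With FK866+NMN they stood at 164 and 155 FPKM, also above controls. Of the oocyte transcription factors, 4 of 5 were more than 2-fold lower at the late than at the early 2-cell stage, among them Nobox, at 15.2 against 194 FPKM, and Lhx8, at 10.9 against 125 FPKM. The other lower ones were at 0 in late controls, which fixed their calls. With FK866, 3 of these 5 were more than 2-fold higher and 1 lower. Of these only Lhx8, at 31.5 against 10.9 FPKM, was above 0 in both columns, so the other calls were fixed. Nobox stood at 14.3 FPKM with FK866 and 15.2 FPKM in controls.

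Khdc1a, Khdc1b and Khdc1c, which encode KH-domain relatives of Ooep and Khdc3, were more than 2-fold lower at the late than at the early 2-cell stage, and Dppa5a was higher, at 479 against 85.3 FPKM. Khdc1b was the most abundant of the 3, at 1052 and 405 FPKM. With FK866 only Khdc1a of these 4 was more than 2-fold higher. Of the zona and oocyte genes, 3 of 7 were more than 2-fold lower from early to late and 0 higher. With FK866 1 was more than 2-fold higher and 4 lower, including H1f8, the oocyte linker histone, at 161 against 481 FPKM. Mos was among these lower ones, at 0 against 6.10 FPKM, so its call was fixed. Kit was the higher one, at 10.7 against 0.378 FPKM, and reached the minimum of 1 FPKM only with FK866. It was also lower from early to late, where it reached the minimum only in early embryos, at 12.2 FPKM. Of the messenger storage and decay factors, 3 of 10 tested were more than 2-fold lower from early to late and 1 higher, and with FK866 1 was more than 2-fold higher and 2 lower. Btg4, which recruits the deadenylase to maternal messengers, stood at 1461 FPKM in controls and 1822 FPKM with FK866. Of 7 other maternal effect genes, 2 were more than 2-fold lower and 2 higher from early to late, and 1 was more than 2-fold higher and 1 lower with FK866, counts near those shares of all genes.

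Relatives of Padi6 were scarce, and those of Tle6 apart from Tle5 were low. Padi1 to Padi4 had no more than 4.19 FPKM in any column but that headed 4-cell FK866, where Padi3 reached 16.7 FPKM. Of the Tle genes, Tle5 was the highest, at 25.3 FPKM in early 2-cell embryos and 18.6 FPKM in late 2-cell controls, above Nlrp2 and Khdc3 at both stages, and Tle1, Tle2 and Tle3 had at most 9.37 FPKM.

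**Figure D4:**
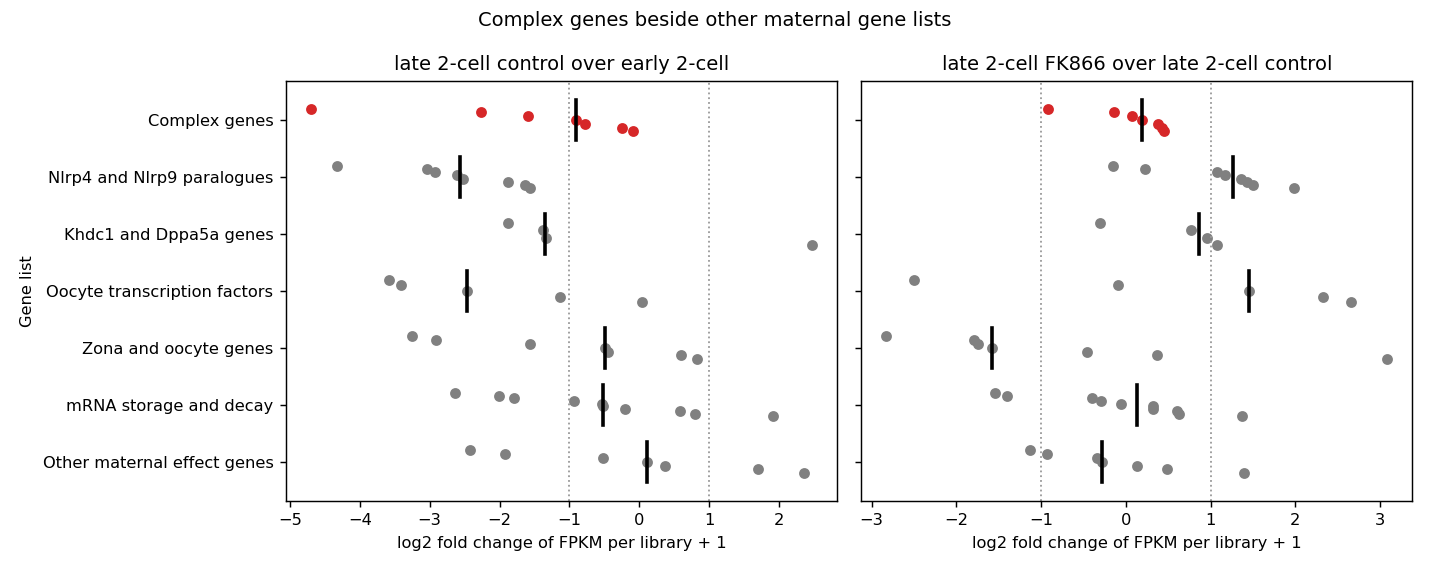
Log2 fold change on the FPKM + 1 scale on the x axis for the tested genes of 7 lists on the y axis, for late over early 2-cell embryos on the left and FK866 over control at the late 2-cell stage on the right. Points are genes, with the complex genes in red, black lines are list medians and dotted lines mark a 2-fold difference. With FK866 the complex genes lie between -0.92 and 0.45, and the median of the Nlrp4 and Nlrp9 paralogues is 1.27.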

How the data were processed

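Mouse embryo RNA-seq (18 samples, 9 groups, 3 embryos a library) was used, while 24 CUT&Tag samples were left out. For these data the authors ran FastQC and Trim Galore, mapped reads to mm10 (HISAT2), summed them over genes (featureCounts) and deposited FPKM, with 1 column for each group. The submitters' processing notes also name CASAVA 1.4. Whether counting used strand is not given in the sources used here.

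Of 15748 rows, 15737 carried a symbol listed once, and 15360 of these had an exon length in GENCODE M21 (GRCm38), from which reads and FPKM of each library were recovered. Between 97.6% and 97.8% of values in a column fell on whole reads, within 0.6 units of the last of 10 significant digits. Reads recovered in this way, with 1 or 2 libraries per column, were not put to a count test. Column means per library were compared as log2(FPKM + 1), over genes reaching 1 FPKM in one of the columns compared, with a 2-fold difference as the threshold. The procedure was tested on simulated data for late 2-cell control against a changed copy (15360 genes), in which 98.3% of non-zero values could be split, 100% of these into the true reads. All 100 genes raised and all 100 lowered 4-fold passed the threshold, as did 9 of 7376 unchanged ones. The simulated reads varied by counting error only, without differences between embryo pools, and the changed genes had at least 5 FPKM. Paired libraries of the data had median ratios over genes from 1.30 to 2.06, so these shares are not error rates for the data.

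The 7 genes and all lists were chosen with earlier results of these data known. Named from the other lists were mainly the genes of highest mean FPKM, up to 4 a list. The 10 genes of most similar profile were named too. Nlrp4 and Nlrp9 paralogues with a mean of at least 5 FPKM were named for their profiles, and Nlrp4c, Mos and Kit for their calls. The partners Zbed3, Nlrp4f and Uhrf1 were not analysed here. As alternatives, the pseudocount was set to 0.1 or 5, the filter raised to 5 FPKM or dropped, values were centred on the median or kept as deposited, libraries were left out in turn, and columns were named by the tables. Scripts ran in Python 3.11.15 with pandas 2.3.3, numpy 2.4.6, matplotlib 3.10.9 and scipy 1.17.1.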

Additional observations from a re-analysis of the deposited data

Results flagged for a closer look

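For 4 pairs of contrasts a gene had all libraries of one stage on one side and all of the other stage on the opposite side. The differences between stages were not tested. Tle6 was lower with FK866 than in controls at the late 2-cell stage, with a log2 fold change of -0.92, and higher at the 4-cell stage under both readings, with 3.61 by the headers and 1.79 by the tables. Ooep was higher with FK866+NMN than with FK866 at the late 2-cell stage, at 1.64, and lower at the 4-cell stage by the headers, at -1.14. By the tables the 4-cell libraries of Ooep overlapped, with a log2 fold change of 0.12. Nlrp14 was lower with FK866+NMN than with FK866 at the late 2-cell stage, at -0.71, and higher at the 4-cell stage by the headers, at 0.61. By the tables its 4-cell libraries overlapped, at 0.54. By the headers both 4-cell treatment columns are single libraries.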

How the results depend on the processing

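No paired analysis was possible because the columns carry no replicate numbers, so no fit with a replicate block was run. Depth, 2 libraries of 3 embryos and the doubtful column names limit all values, and no alternative gives them an error. Of 222 counts over the complex genes and settings, 179 stayed within 1.5 times the reported one and 43 did not. Of 751 values of single genes, 683 kept to the reported value, 29 passed the 2-fold threshold, 22 no longer passed it, 14 turned from a called value and 3 moved. The cause was not tested, except where it is given.

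With 1 library left out at a time, the number of complex genes more than 2-fold lower in late 2-cell controls than in early embryos ranged from 1 to 4, the low values because Ooep and Nlrp14 could not be separated and dropped out. For FK866 over control at the late 2-cell stage the counts ranged from 0 to 1 higher and 0 to 1 lower, for FK866+NMN over FK866 from 1 to 3 higher and 0 to 2 lower, and for FK866+NMN over control from 1 to 3 higher and 0 to 1 lower. By the headers they ranged from 0 to 1 higher for TSA over control, for Sirt1 over control and for 4-cell over late 2-cell control, and from 0 to 1 lower for 4-cell FK866 over control. For FK866+NMN over FK866, Tle6 ranged from -0.30 to 2.12 and Nlrp2 from -0.57 to 2.34, and over control Nlrp2 ranged from -0.14 to 2.77, the lowest each time without library A of FK866+NMN. Leaving out libraries with columns named by the tables was added after seeing the data. So read, the counts ranged from 0 to 1 higher and 0 to 1 lower for TSA over control, for Sirt1 over control and for 4-cell FK866+NMN over FK866, from 0 to 1 higher for 4-cell over late 2-cell control, from 4 to 5 higher and 0 to 1 lower for 4-cell FK866 over control, and from 3 to 5 higher and 1 to 2 lower for 4-cell FK866+NMN over control.

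For late 2-cell FK866+NMN over FK866, 0 genes were lower with a pseudocount of 5, a minimum of 5 FPKM or centring, since Khdc3 no longer passed. Over control, 1 was lower with a pseudocount of 0.1 or values as deposited. For 4-cell FK866 over control by the headers, 1 was lower with a pseudocount of 0.1, centring or values as deposited. For 4-cell FK866+NMN over FK866 by the headers, 0 were higher with a pseudocount of 5, and 1 was lower with a pseudocount of 5 or centring.

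With columns named by the tables, TSA over control had 0 genes higher and 0 lower, Sirt1 over control 0 lower and 4-cell over late 2-cell control 1 higher. For 4-cell FK866 over control 1 was lower, and for 4-cell FK866+NMN over FK866 0 were higher and 1 lower. For TSA over control, Nlrp5 turned to 0.89, Ooep to 0.91, Tle6 to 0.25, Khdc3 to -0.96, Padi6 to 0.18 and Nlrp2 to 0.48. For Sirt1 over control, Nlrp5 turned to 0.088 and Nlrp14 to 0.45. For 4-cell FK866+NMN over FK866, Ooep turned to 0.12, Khdc3 to -0.23 and Padi6 to 0.24.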
